A study of Mus musculus with 8 samples.

Results

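The 10 genes described here encode neuronal RNA-binding and splicing regulators and their broadly expressed opponent: *Ptbp1*, *Ptbp2*, *Nova1*, *Nova2*, *Elavl2*, *Elavl3*, *Elavl4*, *Rbfox1*, *Rbfox3* and *Srrm4*. They were taken by symbol from the 26263 genes of the deposited count tables, and all 10 were found. Polyadenylated RNA was sequenced from male mouse embryonic stem cells (ESCs) of reciprocal hybrid crosses and from neural progenitor cells (NPCs) obtained from them at day 12 of *in vitro* corticogenesis, with 2 libraries in each of 4 groups. The B/J cells were the ESC line BJE2, from a C57BL/6 mother and a JF1 father, and the J/B cells were the line JBE6, from a JF1 mother and a C57BL/6 father. Each cross was therefore 1 cell line. Both NPC groups had been grown on Matrigel in medium with B27 lacking vitamin A and with the BMP pathway inhibitor dorsomorphin homolog 1. The labels name no mutation or transgene in either line. The sources used here do not say whether the 2 libraries of a group came from separate cultures, so p-values measure the spread between these libraries, which may be partly technical.

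Polypyrimidine tract binding protein 1, the product of *Ptbp1*, keeps many neuronal exons out of mRNA in non-neuronal cells. When a cell enters the neural lineage its level falls, and its paralogue *Ptbp2* is then made into stable mRNA because the skipping of an exon of *Ptbp2* by PTBP1 ends. NOVA, ELAVL (Hu), RBFOX and SRRM4 proteins are further regulators of alternative splicing, mRNA stability or both, and most of them appear as progenitors turn into neurons. The comparisons below ask how the mRNA of each gene differed between ESCs and NPCs, whether it differed between crosses, and how evenly the members moved.

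The exon through which PTBP1 controls *Ptbp2* is shown first, because this pair is the centre of the switch. From background knowledge it is the 34-base exon 10, which lies at chr3:119518261-119518294 on the minus strand of GRCm39 and is 1 of 14 exons of the canonical GENCODE transcript. In the sequence below, the 80 intronic bases before the exon come first and the last 34 bases are the exon. The capitals mark TCTT, a short pyrimidine motif that PTB proteins bind, and overlapping matches run together. It was searched only on the strand that reads as the transcript.

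*Ptbp2* exon 10 with the 80 bases before it: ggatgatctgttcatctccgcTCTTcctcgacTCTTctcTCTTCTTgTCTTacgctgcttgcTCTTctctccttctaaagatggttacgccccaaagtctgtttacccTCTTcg

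Those 80 bases held 6 TCTT matches when overlapping matches were counted, and the exon itself held 1. Over 158110 internal coding exons of the annotation the median was 1 match, and 0.128% of them had at least as many as exon 10. Every other internal exon of *Ptbp2* had 0 to 2 in the 80 bases before it, so that exon 10 was the one with the most, which was known when it was chosen for display. The match is a description of letters, and the count tables are summed per gene and hold no measurement of exon use.

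The 8 libraries held between 22537138 and 32706015 counts on genes, and 16399 genes passed the filter on low counts, all 10 members among them. *Rbfox1* passed only through its NPC counts. Levels are given as CPM, counts scaled to a library of 1e+06, after the trimmed mean of M-values (TMM) scaling. The labels of the stages were checked against marker genes. Summed over 10 pluripotency genes the level was 5294 to 9018 CPM in ESCs and 85.9 to 308 in NPCs, and all 10 were lower. Summed over 10 neural precursor genes it was 25.9 to 69.4 CPM in ESCs and 173 to 726 in NPCs, and 9 of 10 were higher. *Pax6*, a defining precursor gene, did not pass (log2 fold change 1.77, adjusted p = 0.0606). It passed, and with it all 10 precursor genes, under scaling by library totals (2.25, adjusted p = 0.0292) and under scaling to 3 housekeeping genes, which were *Gapdh*, *Gusb* and *Tbp* (2.40, adjusted p = 0.0272). The NPC libraries also held markers of other cell types. Trophoblast genes summed to 1098 to 3204 CPM against 62.6 to 201 in ESCs, with 9 of 10 higher, and fibroblast genes to 2083 to 3428 CPM against 1664 to 2207, with 8 of 10 higher and 1 lower. *Tpbpa*, which marks spongiotrophoblast, was at 0 in every ESC library and at 141 to 395 CPM in NPCs. In bulk RNA, fewer cells of a type and less RNA per cell cannot be told apart, and this holds for every level below.

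*Ptbp1* (chr10:79690261-79700605, plus strand) was the single member that fell. Its level was 1207 and 1154 CPM in B/J ESCs and 1019 and 1180 CPM in J/B ESCs, against 417 and 392 CPM in B/J NPCs and 493 and 359 CPM in J/B NPCs. Every NPC library lay below every ESC library. The means were 1140 ± 83.2 CPM (SD, n = 4) and 415 ± 57.0 CPM (SD, n = 4), a fold change of 0.364 (log2 -1.46, SE 0.14, adjusted p = 8.55e-05, from the quasi-likelihood F test of edgeR, adjusted over all genes tested by Benjamini and Hochberg as in every adjusted p below). *Ptbp1* nevertheless remained the highest of the 10 in NPCs by level per kilobase. Along 29.2% of its canonical transcript, *Ptbp1* overlaps exons of genes on the other strand, among them the neuronal gene *Plppr3*, and although the reads were mapped as stranded, no source used here gives the strand setting of the counting. *Plppr3* moved the opposite way, with a mean of 3.45 CPM in ESCs and 108 CPM in NPCs (log2 fold change 4.96).

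*Ptbp2* (chr3:119509386-119578115, minus strand), the neuronal paralogue that takes over part of the targets of PTBP1 during neuronal differentiation, rose. Its level was 36.8 and 49.1 CPM in B/J ESCs and 35.0 and 55.5 CPM in J/B ESCs. In NPCs it was 64.5 and 136 CPM for B/J and 145 and 212 CPM for J/B. The stages did not overlap, although the lowest NPC library was close to the highest ESC library. The change was 3.03-fold (log2 1.60, SE 0.29, adjusted p = 0.00159).

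Because both genes are counted in the same library, their ratio is free of the scaling between libraries. For every 100 units of *Ptbp1* per kilobase there were 2.51 and 3.50 units of *Ptbp2* in B/J ESCs and 2.83 and 3.87 in J/B ESCs. In NPCs there were 12.7 and 28.5 units for B/J and 24.3 and 48.7 for J/B. The ratio was 8.17-fold higher in NPCs on the mean of the log2 values (difference 3.03, two-sided exact permutation p = 0.0286, n = 4 against 4). That is the smallest p that 4 libraries against 4 can give. It was fixed by the separation of the stages for both genes given above, so it adds no further support. With any 1 library left out the smallest possible p is 0.0571, and the design can then not pass 0.05. The ratio rose 6.43-fold within B/J and 10.4-fold within J/B. In every NPC library *Ptbp1* still exceeded *Ptbp2* per kilobase.

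The third paralogue, *Ptbp3*, which is broadly expressed, also rose, by 0.83 on the log2 scale (SE 0.16, adjusted p = 0.00247). It was at 169 to 238 CPM in ESCs and at 288 to 547 CPM in NPCs. Of the per-kilobase sum of the 3 *Ptbp* genes, *Ptbp1* made up 88.2% to 91.8% in ESCs and 54.0% to 66.3% in NPCs.

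**Figure D1:**
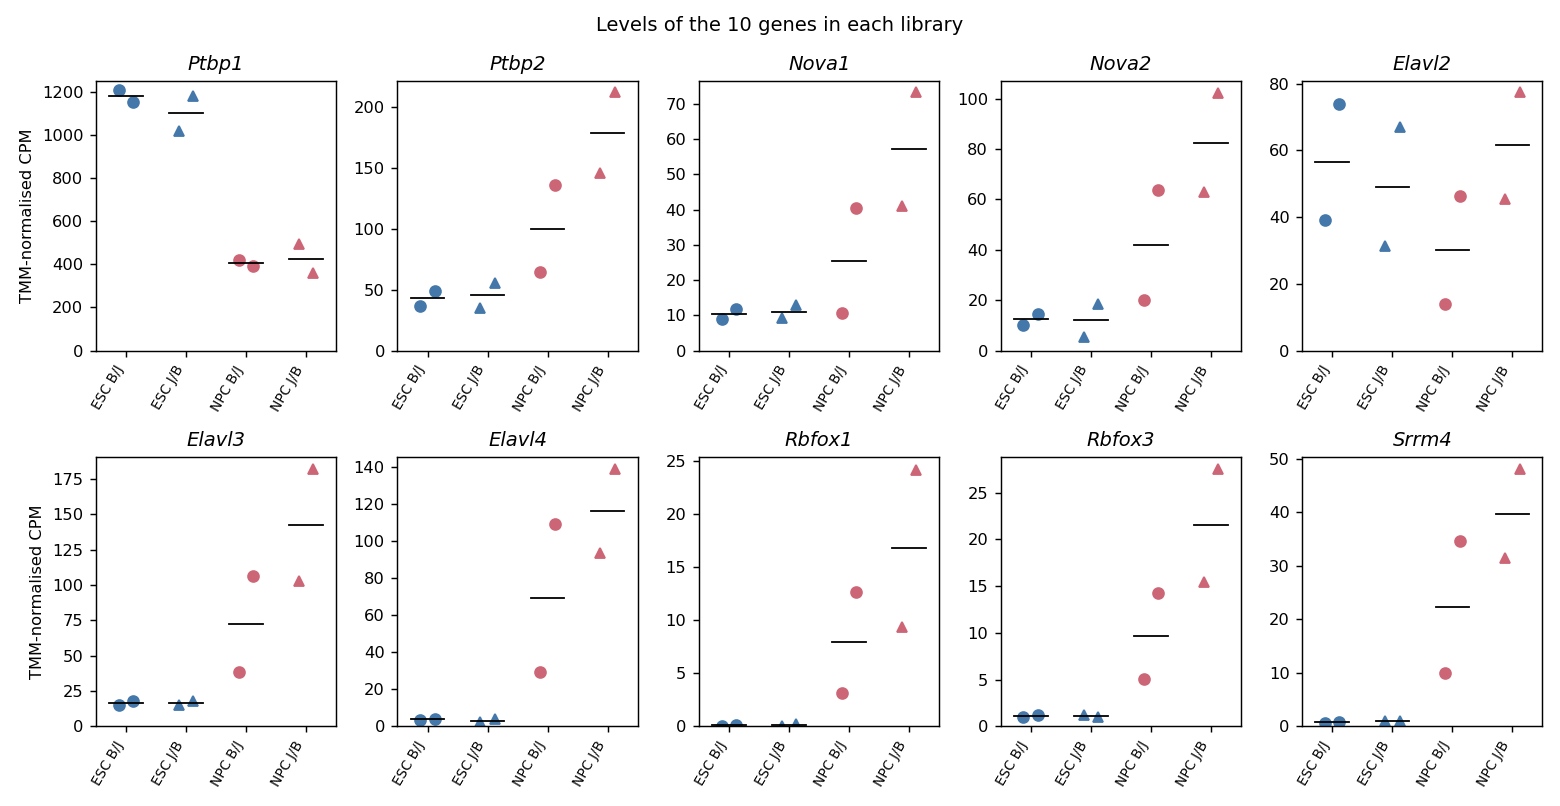
Level of each of the 10 genes in every library, in TMM-normalised CPM on linear axes that start at 0. Circles are B/J and triangles J/B libraries, blue ESC and red NPC, and black bars are group means of 2 libraries. *Ptbp1* sits between 359 and 493 in NPCs, below all ESC libraries, whereas the ESC and NPC libraries of *Elavl2* overlap.

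NOVA proteins bind YCAY clusters in neuronal pre-mRNAs and control splicing of synaptic genes. *Nova1* (chr12:46741300-46866286, minus strand) was at 9.03 and 11.8 CPM in B/J ESCs and at 9.23 and 12.9 CPM in J/B ESCs. The NPC libraries had 10.6 and 40.5 CPM for B/J and 41.2 and 73.3 CPM for J/B. The stages overlapped, since B/J NPC replicate 1 lay among the ESC libraries. Its change was 3.56-fold (log2 1.83, SE 0.42, adjusted p = 0.00560).

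*Nova2* (chr7:18659789-18699244, plus strand), the paralogue that predominates in neocortex, was at 10.2 and 14.7 CPM in B/J ESCs and at 5.33 and 18.6 CPM in J/B ESCs. The NPC values were 20.1 and 63.6 CPM for B/J and 63.0 and 102 CPM for J/B. The stages did not overlap, by a narrow margin. The change was 4.81-fold (log2 2.27, SE 0.49, adjusted p = 0.00422). Per kilobase, *Nova2* stood at 0.532 to 1.32 times *Nova1* in ESCs and at 1.28 to 1.74 times *Nova1* in NPCs.

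The neuronal ELAVL proteins bind AU- and U-rich sequences, stabilise mRNAs and alter splicing, and *Elavl1* (HuR) is their broadly expressed paralogue. *Elavl2* (HuB, chr4:91138905-91289022, minus strand) was at 39.0 and 73.8 CPM in B/J ESCs and at 31.2 and 67.0 CPM in J/B ESCs. In NPCs it was at 13.9 and 46.4 CPM for B/J and at 45.4 and 77.6 CPM for J/B. It was the single member with no call, at a log2 fold change of -0.29 (SE 0.44, adjusted p = 0.571). Its sign was positive under scaling by library totals (0.18) and to the 3 housekeeping genes (0.36).

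*Elavl3* (HuC, chr9:21926301-21963324, minus strand) was at 15.2 and 18.1 CPM in B/J ESCs and at 14.9 and 18.1 CPM in J/B ESCs. In NPCs it was at 38.5 and 106 CPM for B/J and at 103 and 182 CPM for J/B, above every ESC library. The change was 6.13-fold (log2 2.61, SE 0.35, adjusted p = 0.000374). *Elavl3* shares 5.09% of its transcript with the exons of *Gm49318* on the same strand.

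*Elavl4* (HuD, chr4:110060810-110209142, minus strand) was at 3.39 and 4.15 CPM in B/J ESCs and at 2.29 and 3.71 CPM in J/B ESCs. In NPCs it was at 29.4 and 110 CPM for B/J and at 93.8 and 139 CPM for J/B. All 4 NPC libraries lay far above the ESC libraries. The change was 26.6-fold (log2 4.73, SE 0.46, adjusted p = 8.74e-05). Its log2 value was 4.11 without B/J NPC replicate 2 and 5.39 under housekeeping scaling.

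The make-up of the neuronal *Elavl* mRNA therefore differed between the stages. Per kilobase, *Elavl2* accounted for 67.7% to 79.2% of the 3 genes in ESCs and for 18.2% to 20.8% in NPCs. *Elavl4* accounted for 4.39% to 6.25% in ESCs and for 38.0% to 45.1% in NPCs. *Elavl3* accounted for 16.3% to 27.2% and for 36.1% to 42.4%. The NPC shares spanned few percentage points although the levels behind them spanned 4.72-fold or more. *Elavl1* itself was at 134 to 222 CPM in ESCs and at 122 to 143 CPM in NPCs and did not pass the test (log2 fold change -0.38, adjusted p = 0.0925). Its sign turned under library totals (0.09) and housekeeping scaling (0.23), and it passed as lower without B/J ESC replicate 1 or J/B ESC replicate 1 (adjusted p = 0.0397 and 0.0411). The sum of the 3 neuronal genes was 0.700 to 0.905 times *Elavl1* in ESCs and 1.27 to 5.68 times *Elavl1* in NPCs, per kilobase.

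RBFOX proteins bind GCAUG in introns and promote or block inclusion of the neighbouring exon. *Rbfox1* (chr16:5124665-7230343, plus strand), which is used in postmitotic neurons and muscle, had 1, 3, 0 and 6 counts in the 4 ESC libraries and 111, 397, 366 and 749 counts in the 4 NPC libraries. These counts corresponded to at most 0.256 CPM in ESCs and to 3.16, 12.7, 9.37 and 24.2 CPM in NPCs. The pooled ratio was 105-fold with a 95% exact interval of 57.2 to 220, which covers counting error only. It was 194-fold without J/B ESC replicate 2, the library with 6 of the 10 ESC counts. The fitted log2 fold change was 6.67 (SE 0.87, adjusted p = 0.000340). That fitted value was 9.19 without J/B ESC replicate 2 and 6.00 without B/J NPC replicate 2. On the other strand, *Gm61302* overlaps 10.92% of the *Rbfox1* transcript.

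*Rbfox3* (chr11:118380442-118802423, minus strand) encodes NeuN, a nuclear protein used to stain mature neurons. It was at 0.998 and 1.24 CPM in B/J ESCs and at 1.17 and 1.02 CPM in J/B ESCs, from 22 to 29 counts a library. Levels in NPCs reached 5.10 and 14.2 CPM for B/J and 15.5 and 27.5 CPM for J/B. The stages were separate. The change was 13.0-fold (log2 3.70, SE 0.42, adjusted p = 0.000170).

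*Rbfox2*, the broadly expressed paralogue, was at 160 to 211 CPM in ESCs and at 176 to 272 CPM in NPCs and did not pass (log2 fold change 0.25, adjusted p = 0.224), whereas it passed under library totals (0.73, adjusted p = 0.00656) and housekeeping scaling (0.90, adjusted p = 0.00699). For every 100 units of *Rbfox2* per kilobase, *Rbfox1* and *Rbfox3* together made up 0.275 to 0.472 in ESCs and 2.52 to 10.1 in NPCs. The *Rbfox* mRNA of the NPC libraries was thus still mostly *Rbfox2*, unlike the *Elavl* mRNA.

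*Srrm4* (nSR100, chr5:116577334-116729924, minus strand) encodes an activator of neuronal microexons. It was at 0.564 and 0.855 CPM in B/J ESCs and at 0.960 and 0.938 CPM in J/B ESCs, from 13 to 22 counts a library. In NPCs it was at 10.03 and 34.7 CPM for B/J and at 31.5 and 48.0 CPM for J/B. The stages were far apart. The change was 36.1-fold (log2 5.17, SE 0.47, adjusted p = 6.80e-05). Its paralogue *Srrm3* rose too, from 0.130 to 0.938 CPM in ESCs to 3.90 to 18.3 CPM in NPCs (log2 fold change 4.6, SE 0.68, adjusted p = 0.000640). With 1 library left out, the value for *Srrm3* ran from 4.06 to 5.34.

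In all, 8 of the 10 members were higher in NPCs, where 37.5% of all genes tested were called higher, and 1 was lower, where 31.9% were called lower. By levels alone, 7 members had every NPC library above every ESC library, as 35.3% of all genes tested did, and *Ptbp1* had every NPC library below, as 31.2% did. The median log2 fold change of the members was 2.44, and that of all genes tested was 0.17. Under scaling by library totals the median of all genes moved to 0.65, and under scaling to the 3 housekeeping genes to 0.80. Relative to that median *Ptbp1* stood at -1.63, -1.63 and -1.64 and *Srrm4* at 5.0, 5.01 and 5.04 under TMM, library totals and housekeeping genes. A change of scaling shifts every gene and the median nearly alike, so this agreement is built in. No 50-base stretch was shared between the canonical transcripts of any pair of paralogues examined.

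**Figure D2:**
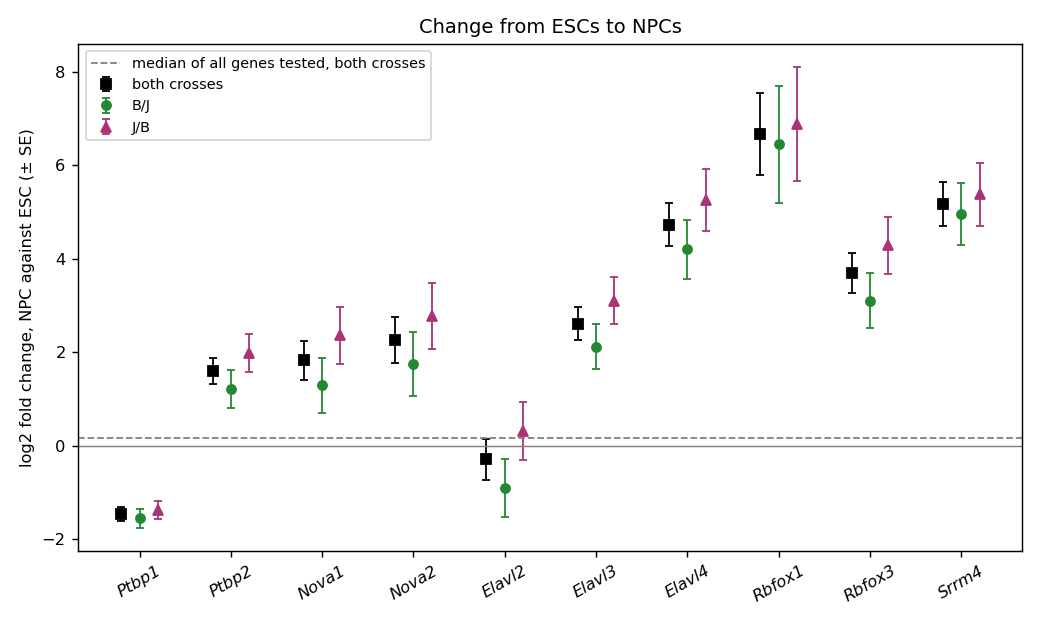
Log2 fold change of each gene between NPCs and ESCs with its standard error, over both crosses (squares), within B/J (circles) and within J/B (triangles). The dashed line is the median of all genes tested, 0.17. *Ptbp1* is below 0 in all 3 fits, *Elavl2* is at -0.90 within B/J and 0.32 within J/B, and the others range from 1.60 for *Ptbp2* to 6.67 for *Rbfox1* over both crosses.

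By level per kilobase of canonical transcript, the order in ESCs ran *Ptbp1*, *Elavl2*, *Ptbp2*, *Elavl3*, *Nova2*, *Nova1*, *Elavl4*, *Rbfox3*, *Srrm4* and *Rbfox1*. It began at 367 ± 26.7 CPM per kb (SD, n = 4) for *Ptbp1* and 12.5 ± 4.92 for *Elavl2* and ended at 0.110 ± 0.0243 for *Srrm4*, with *Rbfox1* below it. *Elavl2* and *Ptbp2* overlapped in their ranges, as did *Nova2* and *Nova1*. The other neighbours were separate in all 4 ESC libraries. In NPCs the order ran *Ptbp1*, *Ptbp2*, *Elavl4*, *Elavl3*, *Elavl2*, *Nova2*, *Nova1*, *Srrm4*, *Rbfox3* and *Rbfox1*, from 134 ± 18.3 CPM per kb for *Ptbp1* and 36.9 ± 16.0 for *Ptbp2* to 2.81 ± 2.01 for *Rbfox1*. Apart from *Ptbp1* and *Ptbp2*, every pair of neighbours overlapped in range there. Within single libraries the order was still kept in 4 of 4 for 6 of those overlapping pairs, *Srrm4* exceeded *Rbfox3* in 3 of 4, and *Elavl4* exceeded *Elavl3* in 2 of 4. The order depended on the length used. With the union of all annotated exons as length, a choice made after the data had been seen, the NPC order after *Ptbp1* began with *Elavl4*, *Elavl3* and *Ptbp2*, *Nova2* and *Srrm4* each moved up by 1 place, and *Rbfox1* stood above *Rbfox3*. In ESCs *Srrm4* (0.0951 ± 0.0209 CPM per kb) then stood above *Rbfox3* (0.0775 ± 0.00817), with overlapping ranges. The ratios between paralogues kept all NPC libraries above all ESC libraries for *Ptbp2* to *Ptbp1*, but at 1.18 to 1.83 units per 100 in ESCs and 6.01 to 23.0 in NPCs, and *Nova2* stood at 0.861 to 2.14 times *Nova1* in ESCs and 2.07 to 2.82 times in NPCs. *Elavl2* then accounted for 55.4% to 69.2% of the neuronal *Elavl* sum in ESCs and for 11.6% to 13.4% in NPCs.

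**Figure D3:**
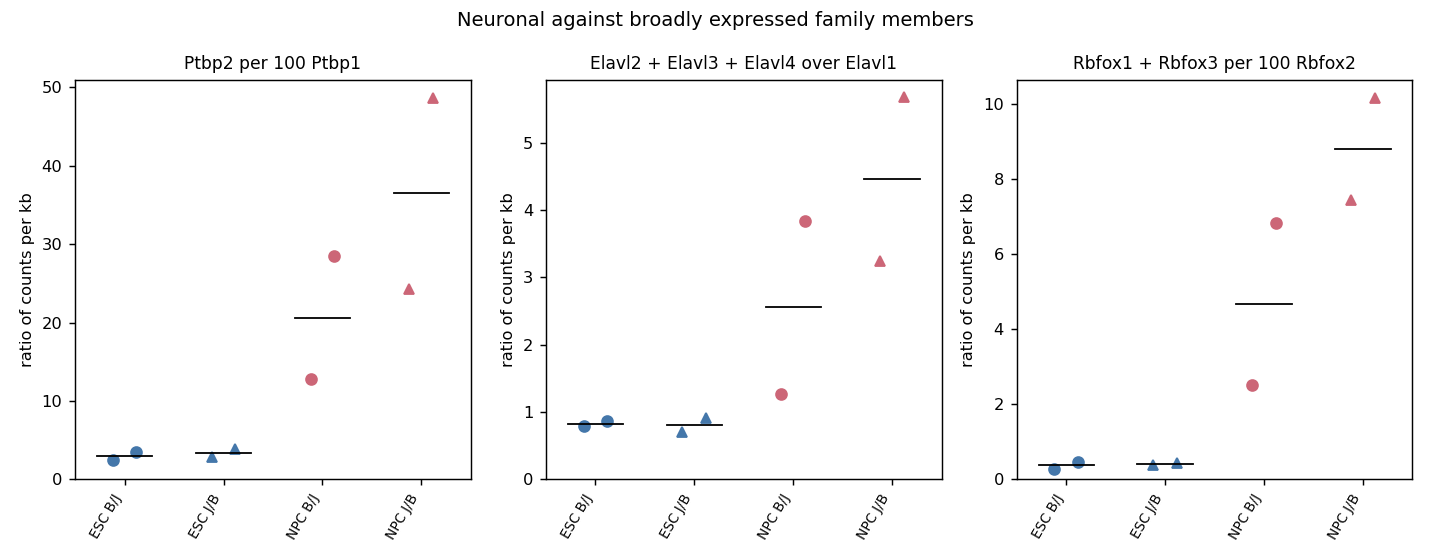
Ratios of counts per kilobase within each library, on linear axes that start at 0, with group means of 2 libraries as black bars. The panels give *Ptbp2* per 100 *Ptbp1* (12.7 to 48.7 in NPCs), the 3 neuronal *Elavl* genes over *Elavl1* (1.27 to 5.68) and *Rbfox1* with *Rbfox3* per 100 *Rbfox2* (2.52 to 10.1). All NPC libraries lie above all ESC libraries in each panel.

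Within the crosses, 6 members rose and 1 fell in B/J, where 30.1% of genes were called higher and 25.6% lower. In J/B 8 rose and 1 fell, where the shares were 29.1% and 25.3%. The 2 members called higher in J/B and not in B/J were *Nova1* (log2 fold change 1.30 in B/J, adjusted p = 0.0955) and *Nova2* (1.75, adjusted p = 0.0606). Both passed in B/J with the replicate number as a block (adjusted p = 0.0483 and 0.00994), by DESeq2 (0.0461 and 0.0140) and under library totals (0.0419 and 0.0330), which made 8 members higher there. The same block also called *Elavl2* lower in B/J (log2 fold change -1.05, adjusted p = 0.0121). With a separate block for each stage, added because same-numbered libraries deviated together only within a stage, *Nova2* passed (adjusted p = 0.0216) and *Nova1* did not (0.57, adjusted p = 0.197), which made 7 members higher. The count in B/J was 4 without B/J ESC replicate 1 and 8 without B/J NPC replicate 1. The 2 calls lost without B/J ESC replicate 1 were *Ptbp2* (log2 fold change 1.03, adjusted p = 0.167) and *Elavl3* (adjusted p = 0.0576), and *Ptbp2* was lost without B/J ESC replicate 2 too (adjusted p = 0.0740). Without B/J NPC replicate 2, the B/J values were 0.04 for *Nova1*, 0.70 for *Nova2* and 0.59 for *Ptbp2* (adjusted p = 0.951, 0.421 and 0.219). Without B/J NPC replicate 1, they were 1.97 for *Nova1* and 2.36 for *Nova2*. In J/B, *Nova1* and *Nova2* no longer passed without J/B NPC replicate 2 (adjusted p = 0.0751 and 0.0624), nor did *Nova1* without J/B ESC replicate 1 (adjusted p = 0.0664).

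The difference itself between the crosses was tested as an interaction of stage and cross. It was positive for all 10 members, from 0.18 for *Ptbp1* to 1.22 for *Elavl2* (SE 0.88), where the median over all genes tested was -0.0185. The share of all genes with a positive value was not counted. In NPCs, 9 of the 10 had the same lowest and highest library, so these signs are not separate observations. For *Nova1* the value was 0.39 without B/J NPC replicate 1 and 2.31 without B/J NPC replicate 2. No member passed, as no gene of all those tested did (0% higher and 0% lower by edgeR). The lowest adjusted p among members was 1.0. At an unadjusted p under 0.05 there were 573 genes and 0 members. DESeq2 called 3 genes higher and 8 lower and limma-voom 0, with 0 members. Between the crosses in ESCs 0% of genes were called higher and 0% lower (346 at an unadjusted p under 0.05, with 0 members, and 10 called by DESeq2 and 0 by limma-voom), and the members differed by -0.32 to 0.65 on the log2 scale. In NPCs 0% were called higher in J/B and 0.00610% lower (1050 at an unadjusted p under 0.05, again with 0 members). The members lay between 0.07 for *Ptbp1* and 1.16 for *Nova1*, and their lowest adjusted p was 0.770. The SEs of these NPC differences were 0.20 for *Ptbp1* and 0.39 to 0.87 for the others, from the fit with no replicate block.

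The spread within NPCs was large and shared by the members. The highest NPC library exceeded the lowest by 1.37-fold for *Ptbp1*, by 3.29-fold for *Ptbp2* and by 4.72-fold to 7.65-fold for the other 8. In 9 of 10 members, all but *Ptbp1*, B/J replicate 1 was the lowest and J/B replicate 2 the highest of the 4 libraries, an order noticed in these data that 19.2% of all genes tested had. In the same 9, J/B exceeded B/J at both replicate numbers (33.0% of all genes) and replicate 2 exceeded replicate 1 in both crosses (32.6%). The share of reads assigned to no gene had the same order, at 7.71% and 9.05% in B/J NPCs and 8.35% and 10.9% in J/B NPCs, and was also higher in replicate 2 in both ESC crosses (5.76% and 6.02% in B/J, 6.65% and 8.44% in J/B). Its part in the members' spread was not tested. In ESCs, replicate 2 exceeded replicate 1 in both crosses for 7 of 10 members (34.0%). *Elavl2* was one of them, at 73.8 against 39.0 CPM in B/J and 67.0 against 31.2 CPM in J/B.

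Neuron markers moved alongside. The sum of 10 such genes (*Tubb3*, *Map2*, *Dcx*, *Stmn2*, *Snap25*, *Syt1*, *Mapt*, *Nefl*, *Nefm* and *Gap43*) was 379 and 1380 CPM in B/J NPCs and 1007 and 1924 CPM in J/B NPCs, against 433 to 570 CPM in ESCs. Of these, 7 rose and *Stmn2*, at 164 to 283 CPM in ESCs, fell, although not past the threshold under housekeeping scaling. In 8 of the 10, as in the members, B/J replicate 1 was the lowest and J/B replicate 2 the highest NPC library. *Dcx*, a marker of young neurons, was at 0.0427 to 0.469 CPM in ESCs and at 62.9 to 387 CPM in NPCs. For every 100 CPM of the neuron marker sum, the NPC libraries held 7.22 to 9.32 CPM of *Elavl4*, a spread of 1.29-fold where the level spread 4.72-fold. For *Srrm4* the spread went from 4.79-fold to 1.25-fold, for *Nova1* from 6.90-fold to 1.46-fold and for *Rbfox1* from 7.65-fold to 1.51-fold. It went from 3.29-fold to 1.73-fold for *Ptbp2*. For *Ptbp1* it grew, from 1.37-fold to 5.90-fold. The trophoblast sum ran the other way, at 3204 and 1629 CPM in B/J NPCs and 1641 and 1098 CPM in J/B NPCs. The neural precursor sum, like the neuron sum, was lowest in B/J replicate 1. It was 173 and 486 CPM in B/J NPCs and 726 and 700 CPM in J/B NPCs, a spread of 4.19-fold. Muscle markers summed to 11.5 to 23.8 CPM and peripheral neuron markers to 17.0 to 56.9 CPM in NPCs (6.93 to 33.0 and 12.3 to 17.7 CPM in ESCs). The 33.0 CPM was J/B ESC replicate 1, and the other ESC libraries had 6.93 to 10.2 CPM of muscle markers. Of 9 muscle genes tested, 5 were called higher and 3 lower, and of 6 peripheral neuron genes 4 and 1. Over all genes tested these shares were 37.5% and 31.9%. Glial markers summed to 65.1 to 132 CPM in NPCs against 37.0 to 70.6 in ESCs. Of the 7, *Aqp4* (log2 fold change 5.04), *S100b* (6.23) and *Pdgfra* (5.96) rose, *Olig1* (-4.23) and *Olig2* (-2.33) fell, and *Sox10* did not pass (1.13, adjusted p = 0.216). *Gfap*, which defines astrocytes, was under 0.5 CPM in every NPC library and did not pass (-1.10, adjusted p = 0.105). Endoderm markers summed to 14.5 to 64.9 CPM against 3.26 to 6.08. The part of these cell types in the members' changes was not tested.

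**Figure D4:**
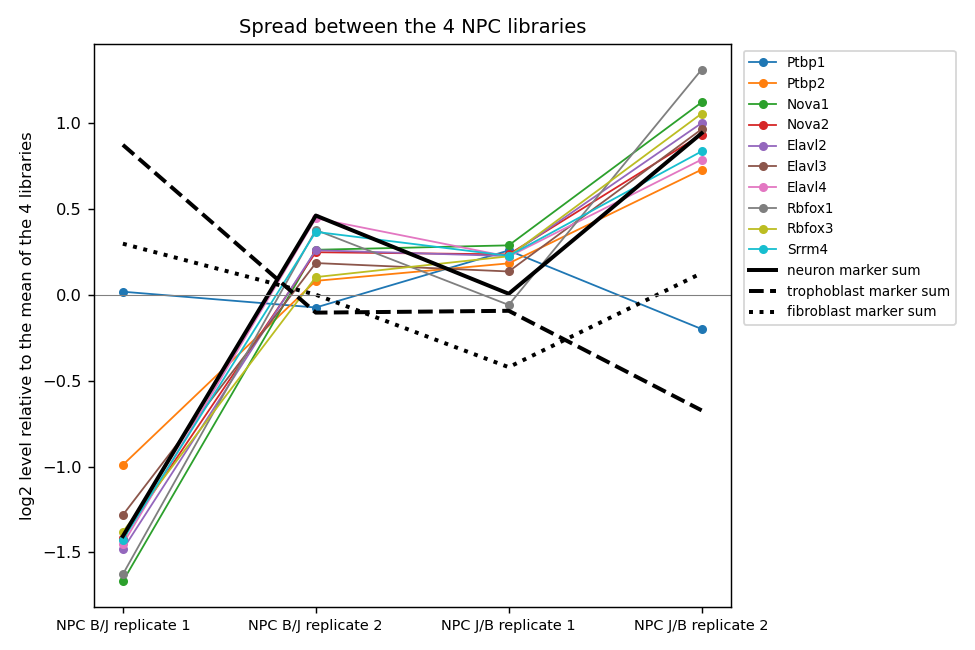
Log2 level of each gene in the 4 NPC libraries, relative to the mean of its 4 log2 values, with the summed neuron (solid black), trophoblast (dashed) and fibroblast (dotted) markers on the same scale. Lines join the values of one gene and imply no order of the libraries. The members other than *Ptbp1* are lowest in B/J replicate 1 and highest in J/B replicate 2, as is the neuron sum (379 and 1924 CPM), while the trophoblast sum is highest in B/J replicate 1 (3204 CPM).

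Upstream of the members, REST represses neuronal genes in non-neuronal cells together with its corepressors, and miR-124 lowers *Ptbp1* in neurons. *Rest* was at 230 to 277 CPM in ESCs and at 45.2 to 59.9 CPM in NPCs and fell by 2.23 on the log2 scale (SE 0.12, adjusted p = 1.47e-05). *Rcor2*, a corepressor, fell by 1.62, and its paralogue *Rcor1* rose by 1.19. The small phosphatases that act with REST rose for *Ctdspl* (3.81) and *Ctdsp1* (0.43), while *Ctdsp2* did not pass (-0.39, adjusted p = 0.182, with a positive sign under library totals and housekeeping scaling). Of the miR-124 host transcripts, *Mir124a-1hg* was at 4.92 to 6.47 CPM in ESCs and at 10.2 to 57.9 CPM in NPCs (log2 fold change 2.35, adjusted p = 0.00237). *Mir124-2hg* had 0 counts in all 4 ESC libraries and 595 in NPCs, at least 129-fold higher against a floor of 3 counts over the group. The bound was 94.7-fold to 158-fold with 1 library left out. *Mir124-2hg* passed the filter on low counts only through its NPC counts, so it could only be called higher. Of the 8 genes of this group in the tables, 5 were thus called higher and 2 lower, against 37.5% and 31.9% of all genes tested. The higher count was 4 in 5 of the 8 fits with 1 library left out, *Ctdsp1* being the call lost (without either B/J ESC replicate, J/B ESC replicate 1, B/J NPC replicate 1 or J/B NPC replicate 1, adjusted p = 0.0530 to 0.102), and *Ctdsp2* passed as lower without J/B ESC replicate 2 (adjusted p = 0.0496).

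The binding element of REST, RE1, was searched in GRCm39 as CAGCACC, any 2 bases, then GGACAG, on both strands. A first search with the longer motif parts TTCAGCACC and GGACAGC gave 101 matches in the genome, and the shorter one was made after that search had found a single member. It gave 619 matches. Within 10000 bases of the start site there was a match for 1 of the 10 members, *Rbfox3*, and for 0.965% of 21770 protein-coding genes. Anywhere in the gene there was one for 4 members, *Nova2*, *Rbfox1*, *Rbfox3* and *Srrm4*, and for 1.52% of protein-coding genes, and long genes hold more matches by their length. *Rbfox1* held 5. The capitals below are the 15 matched bases, 3 matches are shown on the strand that reads as the motif, and the *Nova2* match is the member match of the longer search.

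*Rbfox3* intron 1, chr11:118797578-118797592, minus strand, 3372 bases past the start of the canonical transcript: gggcggCAGCACCAAGGACAGggctag
*Srrm4* intron 1, chr5:116656314-116656328, minus strand: ctggttCAGCACCGCGGACAGtggctc
*Nova2* intron 3, chr7:18685524-18685538, minus strand: cctcttCAGCACCAAGGACAGcagccg

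The changes of these 3 genes between the stages were 13.0-fold, 36.1-fold and 4.81-fold. The other 6 members hold no match within the gene, which says only that these letters are absent there, and 4 of those 6 rose. A match is not a measured binding site, and no binding data enter here.

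Downstream, 3 genes known to have an exon that PTBP1 controls and whose splicing decides whether the mRNA decays were followed. The direction in which the mRNA would move as PTBP1 falls need not be the same for the 3. *Dlg4* (PSD-95) was at 3.82 to 10.4 CPM in ESCs and at 32.5 to 104 CPM in NPCs (log2 fold change 3.12, SE 0.43, adjusted p = 0.000435). *Gabbr1* was at 49.0 to 81.9 CPM and at 43.6 to 136 CPM and did not pass (0.26, adjusted p = 0.455), although it passed as higher under housekeeping scaling (0.94, adjusted p = 0.0425). *Bak1* was at 53.2 to 72.2 CPM and at 34.4 to 61.4 CPM with overlapping stages, at a log2 fold change of -0.44 and an adjusted p of 0.0489. Its value turned to 0.04 under library totals and 0.18 under housekeeping scaling and passed under neither, nor under RLE size factors (adjusted p = 0.0598), nor in 6 of the 8 fits with 1 library left out.

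Other splicing regulators, not all of them tissue-restricted, split. Of 19, 9 were called higher and 2 lower, with a median of 0.92, where 37.5% and 31.9% of all genes tested were. Under library totals 12 were higher and 2 lower (median 1.40), and under housekeeping scaling 13 and 1 (median 1.58), while over all 16399 genes tested the higher calls also grew, from 6145 to 8016 and 8469. The largest rises were those of *Celf3* (from 6 counts over all ESC libraries to 5576 over all NPC libraries) and *Celf6* (log2 fold change 5.46), both neuronal CELF proteins. *Celf3* passed the filter on low counts only through its NPC counts. *Rbm38* (-1.22) and *Celf1* (-0.91) fell most, and *Celf1* no longer passed under housekeeping scaling (-0.28, adjusted p = 0.155). Among 18 regulators of mRNA transport and translation, 6 were called higher and 7 lower, with a median of -0.34, beside the same 37.5% and 31.9% of all genes. Under library totals 6 were higher and 4 lower (median 0.13), and under housekeeping scaling 7 and 3 (median 0.29), beside the same 8016 and 8469 of 16399 genes called higher. *Cpeb2* (2.57) and *Msi1* (2.50), a marker of neural stem cells, rose most, and *Lin28a* (-2.79) and *Igf2bp1* (-1.72) fell most.

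The general splicing machinery was followed beside *Ptbp1*. All 30 core spliceosome genes were lower in NPCs, where 31.9% of all genes tested were, with a median of -1.21 and a range of -2.0 to -0.41, led by *Cdc5l* (-2.0) and *Prpf31* (-1.75). By library totals 23 of the 30 were lower, and by housekeeping scaling 19. Of 24 SR and hnRNP genes 19 were lower and 0 higher, with a median of -0.86, led by *Hnrnpf* (-1.70) and *Srsf3* (-1.33). By library totals 10 were lower and 1 higher, and by housekeeping scaling 6 and 2. Of the 16399 genes tested, 3421 were lower by library totals and 2824 by housekeeping scaling. *Ptbp1*, itself an hnRNP (hnRNP I), lay inside these ranges at -1.46. Of the core genes 6 fell further, and of the SR and hnRNP genes 1 did. *Ptbp1* stayed lower under every scaling tried, at -0.98 by library totals and -0.84 by housekeeping genes. *Gapdh* and *Tbp*, used for that last scaling, were themselves lower under TMM (-1.43 and -0.69).

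**Figure D5:**
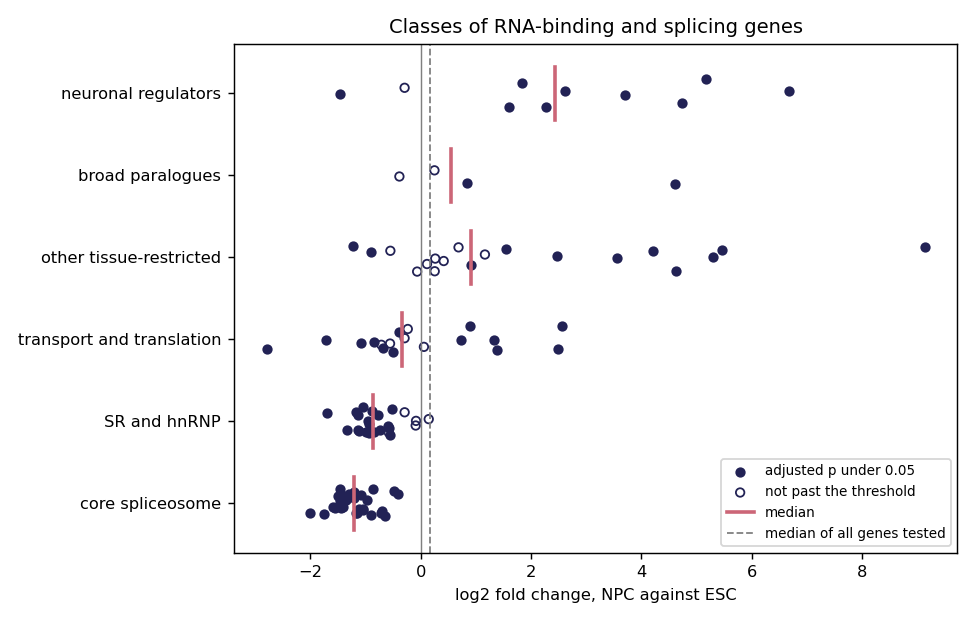
Log2 fold change between NPCs and ESCs of each gene in 6 classes of RNA-binding and splicing genes. The class labelled other tissue-restricted also holds more broadly expressed genes. Filled points pass an adjusted p of 0.05, open points do not, red bars are class medians and the dashed line is the median of all genes tested (0.17). The neuronal regulators centre at 2.44, the SR and hnRNP genes at -0.86 and the core spliceosome at -1.21.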

How the data were processed

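Paired-end, poly(A)-selected reads were mapped by the authors with TopHat2 to an SNP-masked mm39 genome with a refGene-based annotation and the first-strand library setting for all RNA libraries, kept in proper pairs above a mapping quality minimum, and counted per gene. HTSeq is named in the submitters' processing notes (version and strand setting not given in the sources used here), which also list edgeR and DESeq2. Libraries were made with either of 2 mRNA kits on either of 2 instruments, and which library had which is not given, so kit could not be set against group. The deposited values are raw counts per gene. The 5 closing entries that name no gene were left out. Of all reads counted, unassigned reads took 5.76% to 10.9% and ambiguous reads 0.355% to 0.554%.

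From these counts, 16399 genes passed filterByExpr (minimum count 10). They were tested with edgeR 4.0.16 (quasi-likelihood, robust, TMM, 4 group means, Benjamini-Hochberg over all genes tested, threshold 0.05) on R 4.3.3. A gene's printed fold change is the fitted one. The *Ptbp2* to *Ptbp1* ratio had a two-sided exact permutation test (scipy 1.17.1). Alternatives were DESeq2 1.42.0, limma-voom (limma 3.58.1), other scalings and filters, a replicate block and each library left out. Intervals and floors cover counting error only, at 1 count being 0.0256 to 0.0533 CPM. Replicate libraries differed by far more than sampling noise. Positions, lengths and sequences come from GRCm39 with GENCODE vM39, the build of the files. Genes named beyond the members are whole small lists or the 2 largest rises and 2 largest falls of a list at a mean of at least 1 CPM, and marker genes that bear on a label or cell type. *Plppr3*, *Tpbpa*, *Pax6* and the single glial genes were named after their values were seen. The members and lists were chosen with earlier results of these data known.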

Additional observations from a re-analysis of the deposited data

How the results depend on the processing

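Over both crosses, the 9 calls among the members kept their direction and stayed past the threshold under all 18 alternatives. *Elavl2*, not called there, turned positive under library totals (0.18) and housekeeping scaling (0.36) and ran from -0.85 to 0.36 over all alternatives (0.047 and 0.02 without J/B ESC replicate 2 and B/J NPC replicate 1). Within J/B it ran from -0.13 to 0.995 with 1 library left out. Scaling moved the counts over all genes: lower in NPCs were 3421 genes by library totals and 2824 by housekeeping scaling instead of 5233, in B/J 2588 and 2326 instead of 4200, and in J/B 2494 and 1783 instead of 4155, with 7271 instead of 4780 higher by housekeeping scaling.

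With 1 library left out, the genes called higher ranged from 3212 to 5212 within B/J and from 3082 to 4582 within J/B, and those lower within J/B from 2618 to 4037. Members lower within B/J were 1 or 2, *Elavl2* being called without B/J NPC replicate 2. DESeq2 called 3 genes higher and 8 lower for the interaction, 2 and 8 between crosses in ESCs and 26 and 44 in NPCs, and 0 members. Without a filter on low counts 2 genes were lower between crosses in ESCs, and 1 higher and 4 lower in NPCs. The 1 gene lower in J/B NPCs was lost (0 genes) under library totals, housekeeping scaling, the replicate block and some omissions of 1 library (0 to 1 genes).

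Libraries of the same number deviated together within a stage (correlation 0.52 in ESCs and 0.59 in NPCs) but hardly across stages (0.05 to 0.09), so the numbers do not pair ESCs with NPCs. With the replicate block 2 members were lower in B/J (*Elavl2* joined *Ptbp1*) and 8 instead of 6 higher (*Nova1* and *Nova2* joined). A separate block for each stage, added after the data had been seen, gave the same 2 members lower in B/J but 7 higher, since *Nova1* did not join (adjusted p = 0.197), and 1 gene higher and 3 lower between crosses in NPCs. For the *Ptbp2* to *Ptbp1* ratio the replicate block left the log2 difference at 3.03 with an exact sign-flip p of 0.125, the smallest that 4 pairs allow. Leaving out 1 library gave 2.72 to 3.37.

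Small differences between crosses changed sign under some alternatives, none of them called. With 1 library left out, the interaction ran from -0.48 to 5.47 for *Rbfox1*, from -0.24 to 1.55 for *Srrm4* and from -0.10 to 0.38 for *Ptbp1*, and the NPC difference of *Ptbp1* from -0.20 to 0.28. In ESCs the ranges were -0.31 to 0.37 for *Ptbp2*, -0.19 to 0.31 for *Nova1*, -1.24 to 0.58 for *Nova2*, -0.87 to 0.33 for *Elavl2*, -0.17 to 0.12 for *Elavl3*, -4.38 to 1.57 for *Rbfox1* and -0.18 to 0.12 for *Rbfox3*. Library totals gave 0.0048 for *Nova2*, 0.030 for *Elavl3* and 0.0035 for *Rbfox3*, limma-voom -0.14 for *Rbfox1*, the 1 CPM filter 0.0031 for *Elavl3* and the replicate block 0.00020 for *Rbfox3*. The cause of these shifts was not tested. With 10 counts in ESCs, depth limits *Rbfox1* most.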
